A study of Mus musculus with 16 samples.

Results

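Alpha-defensins and other Paneth cell genes were examined in RNA-seq of mouse terminal ileum. The gene set held every symbol that starts with Defa together with Lyz1, Mmp7, Ang4, Mptx1, Mptx2, Pla2g2a, Habp2 and Gfi1. It came to 35 of the 24940 genes in the count table, of which 27 were alpha-defensin entries and 8 were other Paneth cell genes. Both classes are reported apart, because reads were counted only where they mapped to 1 position and several defensins are near copies of another defensin.

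The study compared Bcl6 fl/fl mice (WT), whose Bcl6 gene carries loxP sites, with Bcl6LKO mice (LKO), which carry the same floxed alleles and Alb-cre. The albumin promoter drives Cre in hepatocytes, so the deletion lies in the liver and not in the tissue that was sequenced. All mice were C57BL/6, with 4 males and 4 females of each genotype, and each library came from the last stretch of ileum before the cecum of 1 animal; ages were not given in the sources used here. The deletion cannot be checked in these libraries: ileal Bcl6 mRNA lay between 14.1 and 17.8 counts per 1000000 library counts (CPM) in male WT, 17.3 and 21.8 in male LKO, 9.25 and 15.1 in female WT, and 15.2 and 26.1 in female LKO.

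Paneth cells sit at the base of the small intestinal crypts and secrete antimicrobial proteins from granules into the crypt lumen. Alpha-defensins (cryptdins) are short cysteine-rich peptides that are made as inactive precursors and disrupt bacterial membranes, and in mice the protease Mmp7 cuts the precursors into active peptides. The granules also hold the lysozyme Lyz1, which cleaves bacterial cell walls, and Ang4, an antimicrobial member of the angiogenin family of ribonucleases.

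The family resemblance bears on which defensin reads can be counted, so the ends of 5 coding sequences are shown. Each line gives the last 120 coding bases, 5′ to 3′, of a 282-base coding sequence from the GENCODE annotation of mm10. The coordinates span an intron, and capitals mark the bases that differ from Defa24 at the same position.
Defa24 (chr8:21734699-21735377, plus strand): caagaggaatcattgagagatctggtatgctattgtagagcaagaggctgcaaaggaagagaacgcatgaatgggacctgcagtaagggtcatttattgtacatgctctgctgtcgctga
Defa30 (chr8:21134825-21135503, plus strand): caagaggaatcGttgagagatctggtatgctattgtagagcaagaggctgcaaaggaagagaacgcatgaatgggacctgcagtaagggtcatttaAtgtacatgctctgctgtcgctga
Defa17 (chr8:21655963-21656641, plus strand): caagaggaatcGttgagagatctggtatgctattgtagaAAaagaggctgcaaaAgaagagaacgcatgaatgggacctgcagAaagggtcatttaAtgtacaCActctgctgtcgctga
Defa21 (chr8:21025750-21026423, plus strand): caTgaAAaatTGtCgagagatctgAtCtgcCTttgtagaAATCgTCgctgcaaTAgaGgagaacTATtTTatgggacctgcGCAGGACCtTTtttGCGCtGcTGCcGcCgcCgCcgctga
Defa22 (chr8:21162482-21163155, plus strand): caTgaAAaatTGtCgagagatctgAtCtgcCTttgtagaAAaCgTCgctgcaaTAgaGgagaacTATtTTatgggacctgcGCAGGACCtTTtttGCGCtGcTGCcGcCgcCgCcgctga
Over these bases Defa24 and Defa30 differed at 2 positions, and Defa21 and Defa22 differed from each other at 1. Defa3, whose line is not shown, was identical to Defa17. Defa24 and Defa21 differed at 46, so the abundant defensins fall into at least these pairs of close relatives.

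How much of each transcript is its own was measured with windows of 100 bases, the read length, taken along the annotated transcripts and searched for exact copies in the transcripts of any other gene. All windows of Defa24 and 99.7% of those of Defa30 occurred in no other gene. Defa21 and Defa22 had 59.6% and 59.7% of windows to themselves and shared 129 windows with each other. Defa17 had 9.40% and shared 270 windows with Defa3, which had 13.2%, and Defa5 had 11.9%. Defa2, Defa31, Defa33 and Defa37 had 0 windows of their own. Of the 27 defensin entries 25 were matched to a transcript, all but Defa4 and Defa6. The other 8 Paneth genes had between 93.8% and 100% of windows to themselves. Reads from windows at several genome positions would not be counted. The levels of Defa17, Defa3 and Defa5 may therefore rest on a small part of each transcript. The windows were not placed on the genome. Defa2, Defa31, Defa33 and Defa37 still held 203, 333, 22 and 31 counts over all libraries. Copies outside annotated transcripts and mismatched reads were not examined.

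**Figure D1:**
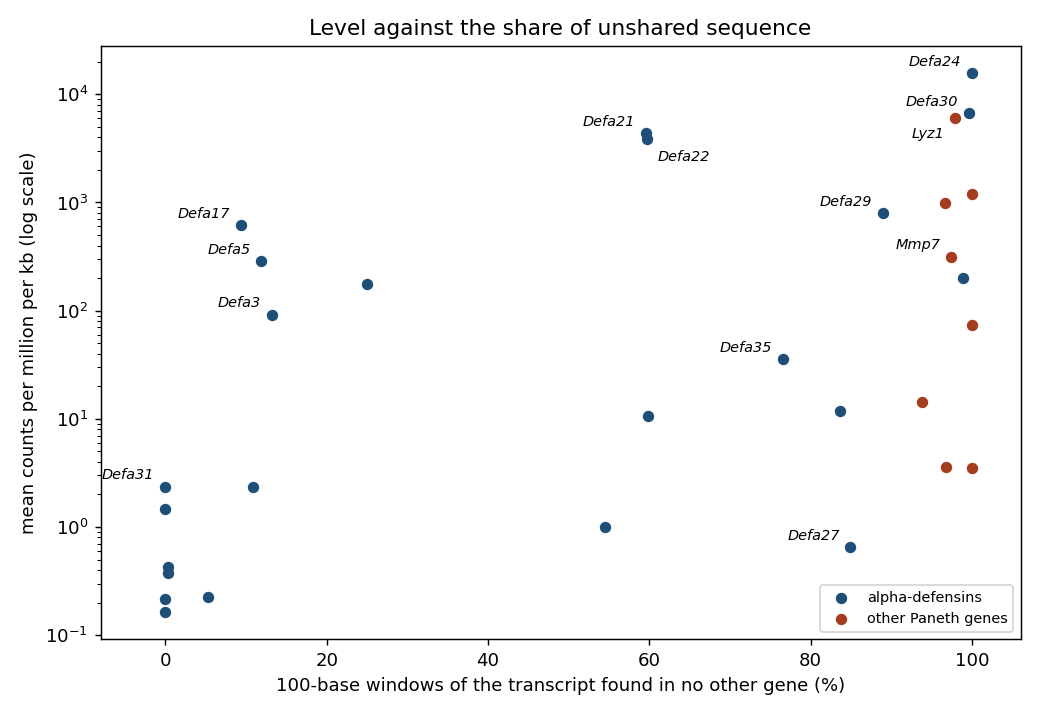
Mean CPM per kb of exon over 16 libraries (log axis) against the percentage of 100-base transcript windows found in no other gene, 1 point per member with a count above 0 and a matched transcript. The other Paneth genes (red) lie at 93.8% or above, whereas the alpha-defensins (blue) spread from 0% to 100%.

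The sequence before the start of the gene was also compared. The fold changes of the tested defensins had the same sign in males and between WT sexes. Whether this sequence has a part in that was not tested. RefSeq (GRCm38.p6) promoter entries were found for 12 of the 27 defensins and 7 of the 8 other genes. None was found for Defa24, Defa17, Defa5, Defa3 or Defa26, and Defa20, Defa32, Defa36 and Defa37, which have one, were not tested for differences. The last 100 bases before the start are shown for 4 defensins in or beside the stretch of chromosome 8 set apart below. Capitals mark TATAAA, the TATA box core, and ATCAAAG, which is CTTTGAT on the other strand and the core bound by Tcf/Lef factors of the Wnt pathway.
Defa21 (chr8:21025445-21025544, plus strand): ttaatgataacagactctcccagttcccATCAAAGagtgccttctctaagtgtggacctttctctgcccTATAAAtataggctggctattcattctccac
Defa22 (chr8:21162177-21162276, plus strand): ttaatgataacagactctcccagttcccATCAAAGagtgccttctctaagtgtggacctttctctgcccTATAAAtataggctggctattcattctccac
Defa35 (chr8:21064938-21065037, plus strand): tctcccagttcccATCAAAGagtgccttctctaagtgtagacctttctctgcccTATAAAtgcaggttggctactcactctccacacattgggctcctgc
Defa30 (chr8:21134550-21134649, plus strand): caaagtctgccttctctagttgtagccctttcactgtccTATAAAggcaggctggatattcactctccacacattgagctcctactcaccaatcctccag
Both strands of the 250 bases before the start were searched, and the motifs do not overlap one another in sequence. CTTTGAT was present in 12 of 12 defensin promoters and TATAAA in 11 of 12, with Defa28 lacking the latter. Over 32851 mouse promoters of the same length CTTTGAT was present in 3.21% and TATAAA in 12.4%. CTTTGAA, which differs from CTTTGAT in the last base, was also searched. It was present in 0 of 12 defensin promoters, 1 of the 7 other genes and 4.46% of all promoters. Either CTTTGAA or CTTTGAT was present in 7.48% of all promoters. Defa30 holds its CTTTGAT farther from the start than the bases shown. Among the other Paneth genes CTTTGAT was present in 1 and TATAAA in 2 of 7, while Lyz1, Ang4, Mptx2, Habp2 and Gfi1 had neither. The 250 bases of Defa21 and Defa22 were identical. Defensin promoters belong to related genes, some are identical, and they do not count as separate observations. A match is a description of these letters only.

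Several defensin entries in the table overlap. Defa6 lies inside Defa24 (chr8:21734494-21735471) and its count was 87.7% of that of Defa24. Defa4 lies inside Defa35 with 65.7% of its count, Defa31 coincides with Defa23 at 99.7%, and Defa37 with Defa36 at 91.2%. For these last 4 entries the table gives a copy number of 2 positions, and RefSeq places the promoters of Defa31 and Defa37 elsewhere (chr8:21191473-21191572 and chr8:21565286-21565385), so which copies they count is not settled. The 27 entries thus cover 23 distinct intervals, and the members of such a pair were read as 1 measurement. Counts of entries below include both members of a pair. For 9 entries the counts over all libraries summed to between 0 and 93, and they were not tested in any comparison. Of these, Defa-ps12 and Defa-ps13, both pseudogenes, were at 0 in all 16 libraries, which allows up to 3 counts in each library. The remaining 18 entries, or 15 intervals, were tested in at least 1 comparison, as were all 8 other genes.

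Libraries held between 1.57e+07 and 2.05e+07 counts except for female LKO replicate 1, which held 6.03e+07. CPM values are scaled by the trimmed mean of M values (TMM). The distinct defensin intervals took 0.920% ± 0.0591 (SD, n = 4) of all counts in male WT, 1.23% ± 0.177 in male LKO, 1.59% ± 0.239 in female WT and 1.69% ± 0.134 in female LKO. In every library at least 89.5% of defensin counts fell on the 4 most abundant defensins. All 7 genes listed as Paneth markers (Lyz1, Mmp7, Ang4, Mptx2, Habp2, Defa24 and Defa17) were counted in every library, the lowest being Habp2 with at least 25.8 CPM. In whole ileum, fewer Paneth cells and less RNA per Paneth cell cannot be told apart.

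Levels between genes were compared per kb of exon. Averaged over 16 libraries, Defa24 reached 15782 CPM per kb, Defa30 6675, Defa21 4390.2 and Defa22 3858. Lyz1, at 6017 CPM per kb, stood among these 4 defensins, and the next genes were Ang4 at 1200.2, Mptx2 at 987, Defa29 at 799 and Defa17 at 621. Mmp7 reached 316 CPM per kb. Lower down were Pla2g2a at 73.5 and Habp2 at 14.2, and the lowest of the non-defensin genes were Mptx1 at 3.59 and Gfi1 at 3.50. Gfi1 encodes a transcription factor of the secretory lineage rather than a granule protein. Some neighbours in this order overlap over libraries, as do Defa30 and Lyz1, while others, such as Defa17 and Mmp7, do not.

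**Figure D2:**
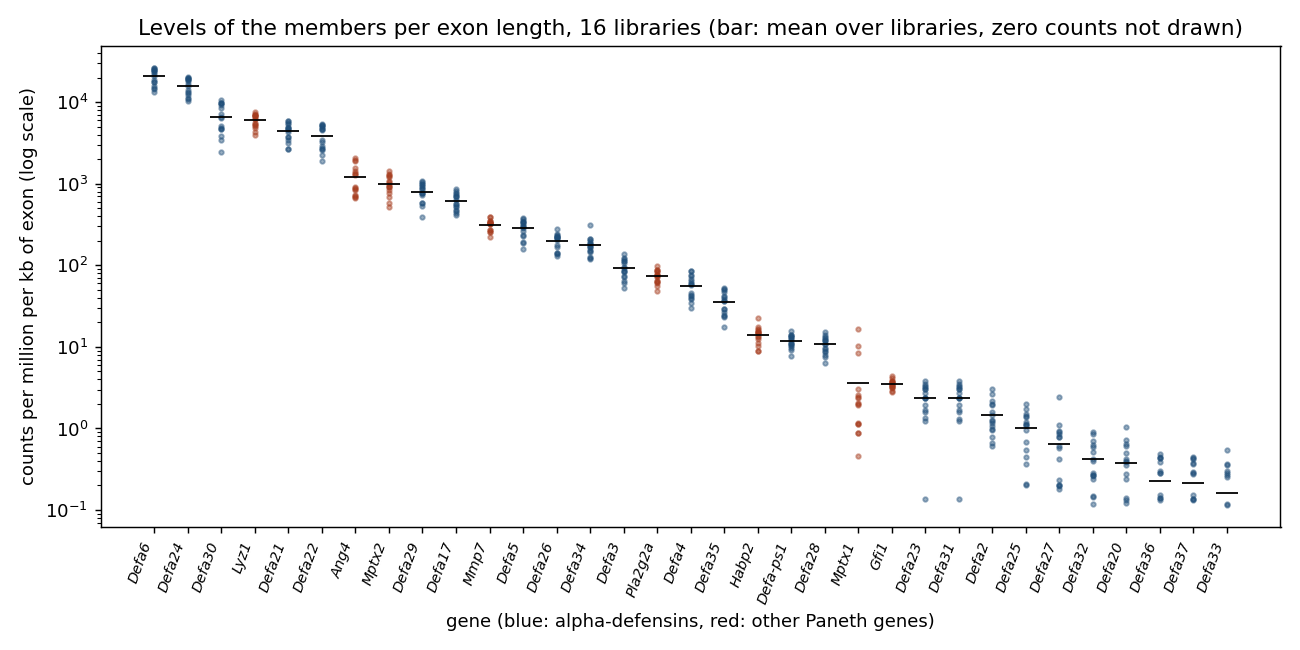
CPM per kb of exon on a log axis for the 33 members with a count above 0, 1 point per library and a bar at the mean of 16 libraries (blue, alpha-defensins; red, other Paneth genes). Defa24 and the Defa6 entry inside it lead, and Lyz1 stands between Defa30 and Defa21.

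Before the comparisons, 4 libraries must be set apart within the defensin cluster. In male WT replicate 4, male LKO replicates 2 and 3 and female LKO replicate 2, Defa30 was between 18.7% and 25.4% of the count of Defa24. In the other 12 libraries it was between 39.8% and 49.9%. The same 4 libraries were lowest of all 16 for Gm14851, a predicted gene of the cluster that is no member, at 8.76% to 10.5% of Defa24 against 17.5% to 22.2%. They were also lowest for Defa22, at 14.3% to 16.5% against 23.3% to 36.2%, and for Defa35 and the Defa4 entry inside it. These genes are neighbours, spanning 98.2 kb from the start of Defa35 to the end of Defa22 (chr8:21065038-21163249). Defa21 on one side of that stretch stood at 23.8% to 27.5% of Defa24 in the 4 libraries and 23.6% to 35.6% in the others. On the other side, Gm15292 was at 0.846% to 0.994% against 0.605% to 0.793%.

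Defa22 was also compared with Defa21, whose promoter window is identical and whose shown coding end differs at 1 base. They had 59.7% and 59.6% of transcript windows to themselves. The count of Defa22 was between 59.8% and 60.2% of that of Defa21 in the 4 libraries. It was between 89.7% and 102% in the other 12. The libraries were picked by the level of Defa30, so these values carry no test, and they belong to 3 of the 4 groups. What sets them apart was not tested. Fold changes printed below for Defa30, Defa22, Defa35 and Defa4 rest on these libraries and are also given without those in the comparison. The fold changes of Defa5 and Defa26 in males include these libraries as well.

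**Figure D3:**
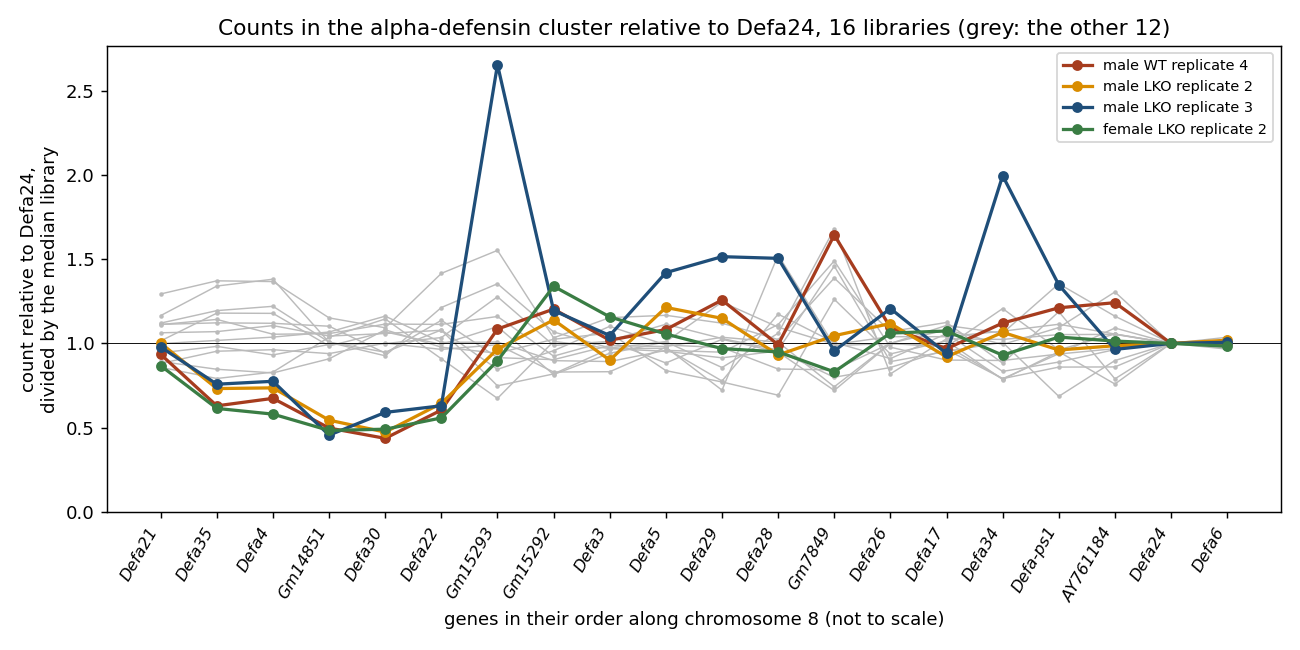
Count of each gene relative to Defa24, divided by the median library, for defensin cluster genes in their order along chromosome 8 (not to scale), 1 line per library. The 4 coloured libraries lie below the other 12 from Defa35 to Defa22, where Defa30 is at 0.436 to 0.590 of the median library, and not at Defa21. They lie above the other 12 at Gm15292, and above the median library at Defa5 and Defa26.

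The first comparison asked how loss of hepatic Bcl6 changed these genes in male ileum. Lyz1 and Mmp7 rose in male LKO, and every tested defensin had a fold change above 0 without passing the test. Lyz1 was counted at 5383, 6369.9, 5021 and 6134 CPM in male WT replicates 1 to 4, and at 9630.4, 9139, 7913 and 8834 in male LKO. The groups did not overlap, the lowest LKO library being above the highest WT library. The log2 fold change was 0.64 (SE 0.0864; 1.55-fold; edgeR quasi-likelihood adjusted p = 0.0089).

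Mmp7, the protease that activates the defensins, was counted at 285, 234, 269 and 273 CPM in male WT and at 411, 351, 370.4 and 338 in male LKO. Here too all 4 LKO libraries lay above all 4 WT libraries. The log2 fold change was 0.47 (SE 0.0787; 1.39-fold; edgeR adjusted p = 0.0442). Of the 8 other Paneth genes 2 were thus called higher, and 0 lower, where 0.0527% of the 15169 genes tested were called higher. The median log2 fold change of the 8 was 0.46, beside -0.0020 for all genes tested. Without male WT replicate 1 neither gene was called. Mmp7 was called in only 2 of the 8 fits that left out 1 library, those without male WT replicate 4 and without male LKO replicate 4, while Lyz1 was called in 7 of 8. With the number in the sample titles as a covariate neither was called (adjusted p = 0.311 for Lyz1 and 0.229 for Mmp7 by edgeR), and over all alternatives their adjusted p ran from 2.43e-08 to 0.311 and from 3.71e-05 to 0.229. That number was higher in every male LKO than in every male WT animal. In males it therefore cannot be told apart from genotype, whereas in females the numbers of the groups interleave.

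The other 6 did not pass in males. Mptx2, a mucosal pentraxin, went from 404, 356, 475 and 572 CPM in WT to 906, 727, 1003 and 627 in LKO, again without overlap. Its log2 fold change was the largest of the 8 at 0.86 (95% interval 0.41 to 1.30), with an adjusted p of 0.393 by edgeR and 0.0184 by DESeq2. Ang4 went from 506, 471, 460.1 and 579 CPM to 613, 896, 636 and 601, with 1 LKO library far above the other 3 (log2 fold change 0.45, edgeR adjusted p = 0.592). Pla2g2a, a secreted phospholipase whose gene is disrupted in C57BL/6 mice and is listed here as a noncoding transcript, went from 50.7, 44.5, 48.6 and 49.4 CPM to 59.6, 57.5, 77.3 and 69.4. That difference had a log2 size of 0.45 and edgeR adjusted p of 0.0923, and its groups did not overlap.

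Habp2, a secreted serine protease that binds hyaluronan, was at 29.9, 25.8, 39.0 and 25.8 CPM in WT and 44.6, 36.8, 44.9 and 39.7 in LKO (log2 fold change 0.47, edgeR adjusted p = 0.373). Gfi1 ranged from 8.97 to 9.75 CPM in WT and from 7.91 to 11.8 in LKO, with a 95% interval of the log2 fold change from -0.16 to 0.40. Mptx1 ranged from 0.698 to 1.63 CPM in WT and from 0.363 to 1.61 in LKO, with a 95% interval from -0.93 to 0.80. By DESeq2, the test the study used, 4 of the 8 were called higher, namely Lyz1, Mmp7, Pla2g2a and Mptx2, where 0.363% of all genes were.

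Of the 17 defensin entries tested in males, 0 were called by edgeR, 13 were higher with an unadjusted p below 0.05, and 7 were called higher by DESeq2. Of all genes tested, 3.01% were higher at that unadjusted level. All 17 had a fold change above 0, as did 49.2% of all genes, and their log2 fold changes ran from 0.29 to 1.10 with a median of 0.53. In 8 of them the groups did not overlap, with LKO higher, which held for 1.63% of all genes. The entries are related genes that share sequence and are not independent. They include Defa24 with Defa6, Defa35 with Defa4 and Defa23 with Defa31, each pair being 1 measurement. The largest fold change was that of Defa23 and Defa31, at 0.518 CPM in male WT and 1.12 in male LKO on average.

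Defa24 was counted at 4533, 4647, 4249 and 5035 CPM in male WT and at 6922, 6566, 5847 and 5334 in male LKO, with no overlap. Its log2 fold change was 0.42 (SE 0.0854; edgeR adjusted p = 0.106; DESeq2 adjusted p = 0.00248), and the Defa6 entry inside it gave 0.44. Defa21 was at 1097, 1422, 1103 and 1294 CPM in WT and at 2217, 1807, 1573 and 1897 in LKO, so LKO over WT gave 0.61 on the log2 scale (SE 0.109; edgeR adjusted p = 0.0669). Defa17 was at 171, 193, 181 and 187 CPM in WT and at 276, 232, 211 and 230.3 in LKO (0.38, SE 0.0808; edgeR adjusted p = 0.147). These 3 defensins showed LKO libraries above WT libraries throughout.

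Defa5 and Defa26, named after their values were seen, came as near to the threshold as Defa21. Defa5 lay between 66.1 and 96.0 CPM in WT and 109.7 and 146 in LKO (log2 fold change 0.70). Defa26 lay between 49.9 and 64.8 CPM in WT and 67.1 and 86.3 in LKO (0.53), both with an edgeR adjusted p of 0.0669. Defa30, in the set-apart stretch, was at 1951, 1883, 1824 and 944 CPM in male WT and 2757, 1336, 1484 and 2506 in male LKO (log2 fold change 0.29, SE 0.341), so the groups overlap.

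Defa22 had a log2 fold change of 0.48 (SE 0.326), Defa35 of 0.63 (SE 0.243) and the Defa4 entry of 0.65 (SE 0.228). Without the 4 libraries low in Defa30, a choice made after seeing the data that leaves 3 WT and 2 LKO males, edgeR called 10 defensin entries higher, and 0.37% of all genes. The log2 fold changes of Defa30, Defa22, Defa35 and Defa4 were then 0.48, 0.77, 0.87 and 0.91. These 4 lie in the stretch by which the libraries were picked, and the other 6 called were Defa5, Defa21, Defa17, Defa26, Defa3 and Defa6. Leaving out male WT replicate 4 alone gave 5 called, and 0.164% of all genes. Without male LKO replicate 4 it gave 2 (0.0655% of all genes), without male WT replicate 2 it gave 1 (0.0653%), and without male LKO replicate 3 it gave 1 (0.0522%).

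**Figure D4:**
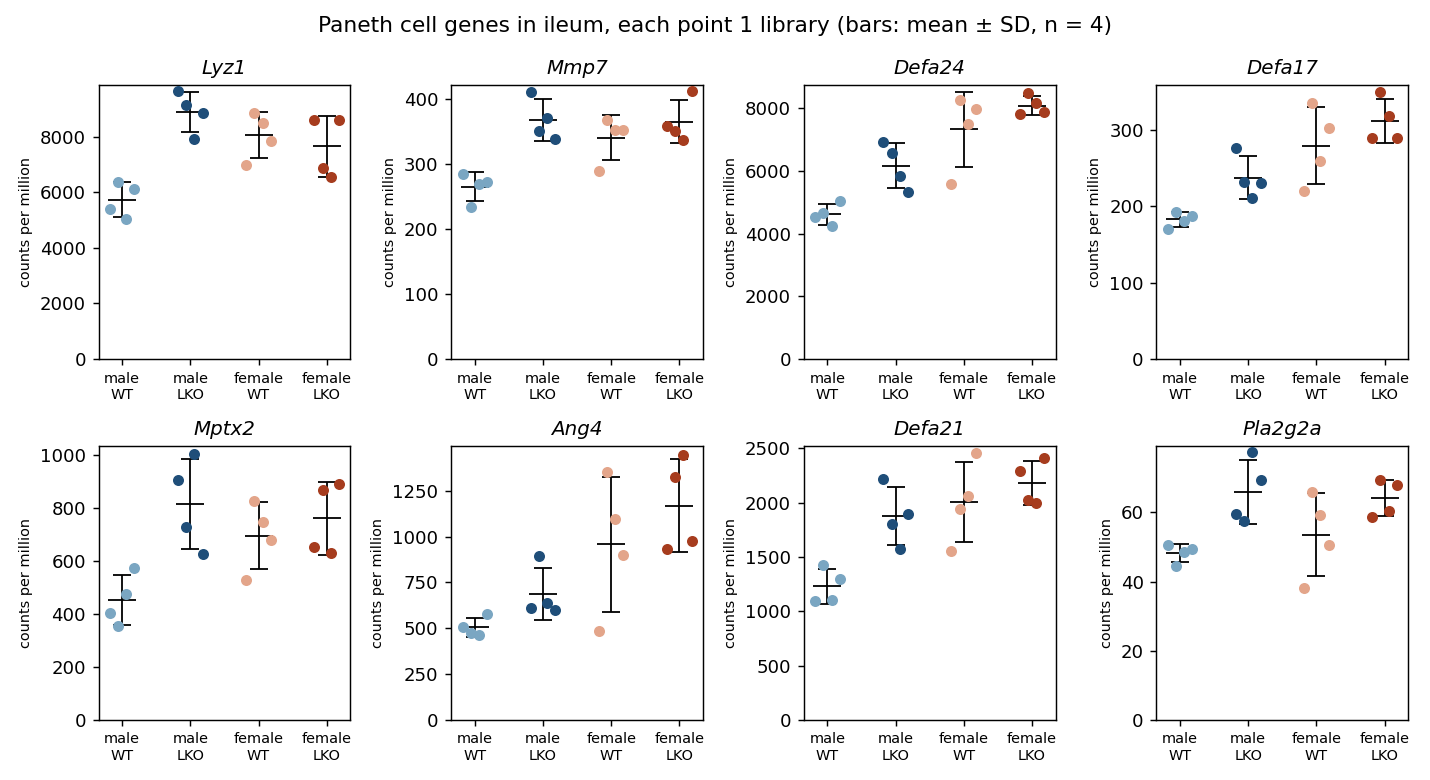
CPM of 8 Paneth genes in each group, 1 point per library with mean and SD (n = 4), each axis starting at 0. For Lyz1, Mmp7, Defa24, Defa17, Mptx2, Ang4, Defa21 and Pla2g2a all male LKO libraries lie above all male WT libraries. The female groups overlap. Members whose male groups overlap, among them Defa30, Defa22, Habp2, Gfi1 and Mptx1, are not drawn. Of all genes tested in males, 1.63% had LKO higher without overlap.

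The same comparison in females gave no call. Of 18 defensin entries and 8 other genes tested in 15298 genes, 0 were called by edgeR, 0 had an unadjusted p below 0.05 and 0 were called by DESeq2, where edgeR called 0.0196% of all genes higher and as many lower. An unadjusted p below 0.05 was found for 4.95% of all genes higher and 6.75% lower, and DESeq2 called 0.353% and 0.654%. The median log2 fold change was 0.085 over the defensins and 0.12 over the others, beside 0.0070 for all genes, and the defensins ran from -0.14 to 0.25. Lyz1 was at 6973, 8851, 8507 and 7845 CPM in female WT and at 8597, 6856, 6559 and 8586 in female LKO. Its log2 fold change was -0.066 with a 95% interval from -0.30 to 0.17, and the groups overlap.

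Mmp7 was at 289.8, 367, 353 and 353 CPM in female WT and at 359, 351, 338 and 413 in female LKO (0.11, 95% interval -0.078 to 0.29). Defa24 was at 5576, 8253, 7497 and 7973 CPM and at 7832, 8479.8, 8154 and 7892 (0.15, -0.087 to 0.39). In both genes female WT replicate 1 was the lowest of its group, as it also was for Defa17, Defa21, Mptx2, Ang4 and Pla2g2a. For Defa21 the log2 fold change was 0.13, for Defa17 0.17 and for Mptx2 0.14.

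Ang4 was at 483, 1353, 1094 and 900.2 CPM in female WT and 930.2, 1324, 1446 and 978 in female LKO (log2 fold change 0.30, SE 0.323). Mptx1 reached 8.27 CPM in 1 WT library and 6.65 and 13.4 in 2 LKO libraries and lay between 1.55 and 2.42 in the other 5, so its fold change of 0.70 (SE 0.862) is the least certain. Pla2g2a gave 0.26 (SE 0.149), Habp2 -0.047 (SE 0.182) and Gfi1 -0.0043 (SE 0.129). In the set-apart stretch Defa30 gave -0.069 (SE 0.259), Defa22 0.042 (SE 0.210), Defa35 -0.022 (SE 0.177) and Defa4 -0.091 (SE 0.181). Without female LKO replicate 2, the set-apart library of this comparison, they gave 0.13, 0.21, 0.11 and 0.044. B-cell follicle genes summed to between 24.5 and 316 CPM in female LKO and 19.2 and 59.1 in female WT, and their part in these values was not tested.

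**Figure D5:**
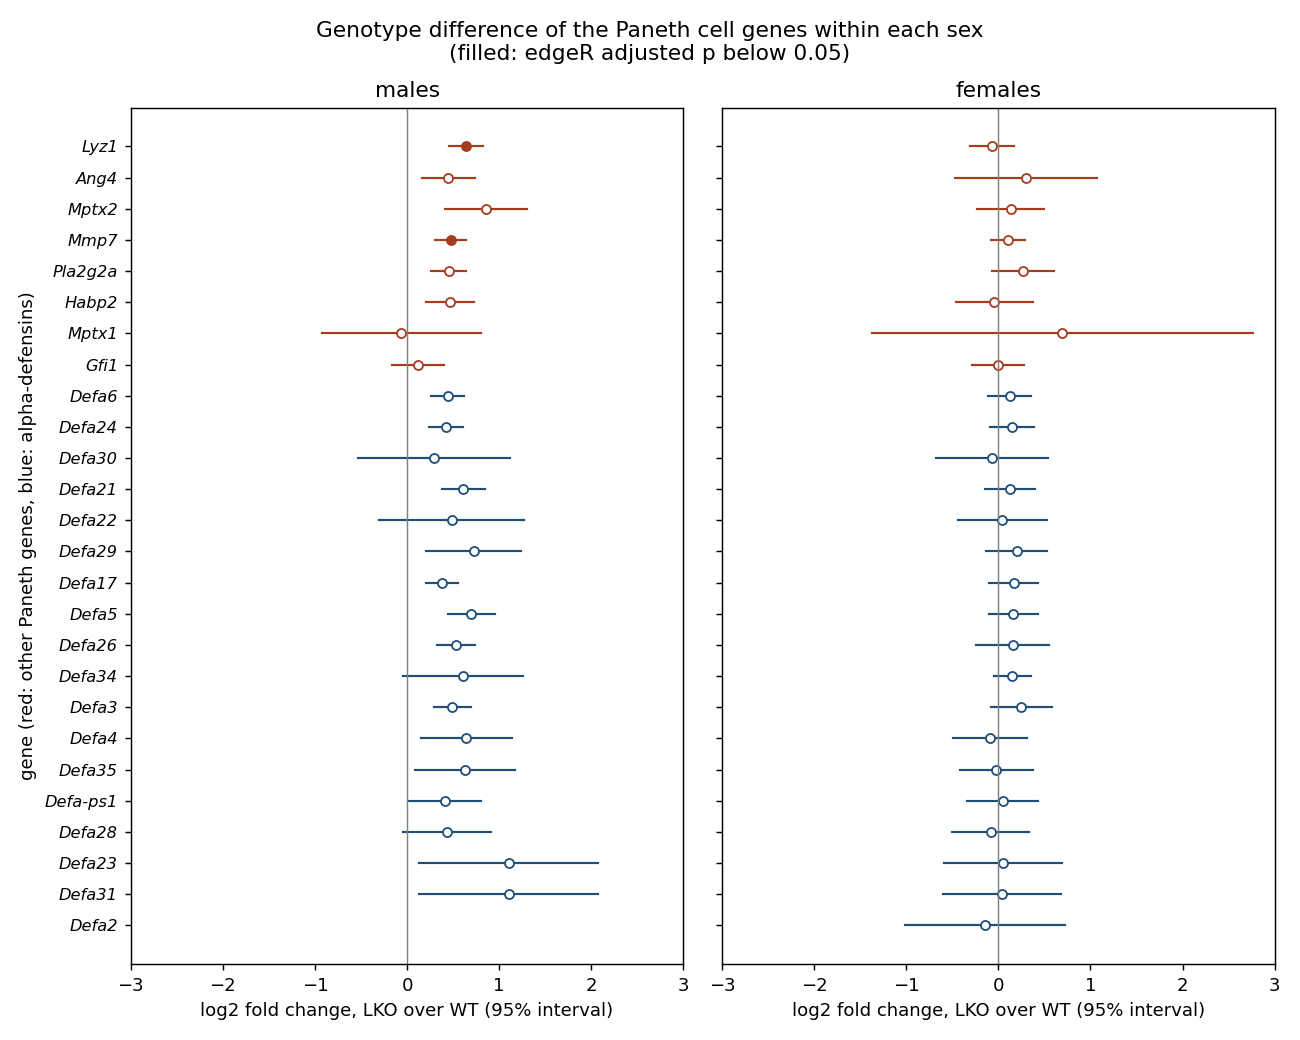
Log2 fold change of LKO over WT with its 95% interval for each tested member, in males (left) and females (right). In males the points lie right of 0 except for Mptx1 and only Lyz1 and Mmp7 are filled (edgeR adjusted p below 0.05), whereas in females all 26 intervals include 0.

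An interaction term over all 16 libraries compared the genotype effect of males with that of females. edgeR called it for 0 of 18 defensin entries and 0 of 8 other genes, and for 0% of the 15598 genes tested; DESeq2 called 0 as well. An unadjusted p below 0.05 was found for 4 defensin entries and 3 other genes, all with a larger value in males, as for 2.58% of all genes. Lyz1 had the smallest p: its effect was larger in males by 0.70 on the log2 scale (SE 0.147, unadjusted p = 0.000141), with an adjusted p of 0.845 by edgeR and 0.0503 by DESeq2. The interaction of Mmp7 was 0.36 (SE 0.121), of Mptx2 0.71 (SE 0.271), of Defa21 0.48 (SE 0.185) and of Defa24 0.27 (SE 0.146). The call of Lyz1 and Mmp7 in males and not in females is therefore not shown to be a difference between the sexes.

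Over both sexes together, with sex as a term, 0 members were called by edgeR where 0.122% of genes were called higher and 0.147% lower. An unadjusted p below 0.05 was found for 9 defensin entries and 4 other genes, all higher in LKO, where 4.67% of all genes were. DESeq2 called 5 and 2 higher, and 0.551% of all genes. Mmp7 gave 0.29 (SE 0.0721; edgeR adjusted p = 0.101), Defa24 0.28 (SE 0.0775; 0.133) and Lyz1 0.28 (SE 0.116; 0.359).

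Among WT mice Defa24, the most abundant defensin, and the less abundant Defa17 and Defa35 were lower in males than in females. Of 18 defensin entries tested, 5 were called lower by edgeR and 0 higher, where 0.151% of 15229 genes were called lower and 0.0985% higher. The 5 entries are 3 measurements: Defa24 with Defa6, Defa35 with Defa4, and Defa17. All 18 had a difference below 0, from -1.11 to -0.34 on the log2 scale with a median of -0.68, and in 13 the groups did not overlap with males lower, which held for 4.14% of all genes. The value of -1.11 was that of Defa23 and Defa31, at 0.518 CPM in male WT and 1.13 in female WT on average. Above 0 were 48.2% of all genes. DESeq2 called 11 lower, and 0.775% of all genes. An unadjusted p below 0.05 was found for 16 entries, lower in males, as for 7.72% of all genes.

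Defa24 was counted at 4249 to 5035 CPM in male WT and 5576 to 8253 in female WT, without overlap. Its log2 difference, male over female, was -0.67 (SE 0.110; edgeR adjusted p = 0.0317). Defa17 lay at 171 to 193 CPM in males and 220.0 to 335 in females (-0.61, SE 0.109; edgeR adjusted p = 0.0464). Defa35 was at 9.63, 11.6, 9.30 and 7.06 CPM in males and 14.7, 14.5, 17.0 and 21.2 in females, a log2 difference of -0.85 (SE 0.157; edgeR adjusted p = 0.0464), and Defa4 inside it gave -0.88 (SE 0.159; edgeR adjusted p = 0.0431).

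The largest difference among the abundant defensins was that of Defa30, at 944 to 1951 CPM in males and 2562 to 4063 in females (-1.05, SE 0.260; edgeR adjusted p = 0.189). Defa21 gave -0.71 (SE 0.133) and Defa22 -0.77 (SE 0.184), and neither passed. The count of called defensins was 0 without male WT replicate 1, 3 or 4 or without female WT replicate 2 or 3, while the differences of all 5 entries stayed below 0 in these fits. Without male WT replicate 2 it was 3, where 15 of 15383 genes were called lower. Without female WT replicate 4 it was 3, where 32 of 15357 were. Without female WT replicate 1 it was 8, where 22 of 15365 were. Without male WT replicate 4, the only one of the 4 set-apart libraries in this comparison, Defa24 gave -0.71, Defa30 -0.85, Defa22 -0.64, Defa35 -0.73 and Defa4 -0.78.

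None of the 8 other genes was called by edgeR in this comparison, although 6 had an unadjusted p below 0.05 and DESeq2 called 4 lower. Lyz1, with male values of 5021 to 6369.9 CPM below all female values of 6973 to 8851, came nearest (-0.49, SE 0.0963; edgeR adjusted p = 0.0518). Mmp7 also did not overlap, at 234 to 285 CPM against 289.8 to 367 (-0.36, SE 0.0845; 0.0985 by edgeR). Mptx2 gave -0.62 (SE 0.176), Habp2 -0.67 (SE 0.230), Ang4 -0.93 (SE 0.304) and Mptx1 -1.85 (SE 0.626), and Pla2g2a and Gfi1 each gave -0.15. Of 6 smooth muscle genes 6 had a difference below 0 in WT males (median -0.33) and 5 had an unadjusted p below 0.05 (7.72% of all genes lower), but edgeR and DESeq2 called 0. Their summed level was 3198 to 3605 CPM in males and 3519.6 to 5467 in females. Of 14 secretory folding genes 13 had a difference above 0 (median 0.23), and their summed level was 4025 to 5391 CPM in males and 3495 to 3865 in females. Among these 14, edgeR called 0, 9 were higher with an unadjusted p below 0.05 (6.21% of all genes), DESeq2 called 4 higher (0.867%) and 8 did not overlap with males higher (4.02%). The part of either list in the defensin difference was not tested.

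Among LKO mice 0 defensins and 0 other genes were called by edgeR between the sexes, where 0.0393% of 15250 genes were called lower in males and 0.059% higher. Lower in males with an unadjusted p below 0.05 were 4 defensin entries and 2 other genes, beside 11.7% of all genes. DESeq2 called 4 and 2 lower, and 3.67% of all genes. In 4 and 2 of them the groups did not overlap, with males lower, as in 6.43% of all genes. The median log2 difference was -0.18 over the defensins and -0.0078 over the others. Defa24 gave -0.39 (SE 0.0827; edgeR adjusted p = 0.0674), with male values of 5334 to 6922 CPM below female values of 7832 to 8479.8. Defa17 gave -0.39 (SE 0.0892) and Ang4 -0.77 (SE 0.188), both without overlap. Lyz1 gave 0.21 (SE 0.101) and Mmp7 0.0075 (SE 0.0797), and their groups overlap. Mptx1 was at 0.363 to 1.61 CPM in males and 1.87 to 13.4 in females (-2.62, SE 0.833; edgeR adjusted p = 0.143).

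In this comparison edgeR also called 0 genes of the lists of other cells. Of all genes, 11.7% were lower with an unadjusted p below 0.05 and DESeq2 called 3.67% lower. Of 6 smooth muscle genes 6 were below 0 in LKO males (median -0.45), 5 with an unadjusted p below 0.05, and DESeq2 called 5 lower. For these 6 genes the sums follow. Their summed level was 2779 to 3543 CPM in males and 3708 to 5203 in females. All 4 B-cell follicle genes had an unadjusted p below 0.05 (median -3.16) and were called lower by DESeq2, with sums of 18.4 to 21.6 CPM in males and 24.5 to 316 in females. All 3 tuft cell genes had an unadjusted p below 0.05 (median -0.65) and DESeq2 called 2 lower, with sums of 22.7 to 36.6 and 34.5 to 56.0 CPM. Of 14 secretory folding genes 14 were above 0 (median 0.22) and 5 had an unadjusted p below 0.05, where 10.9% of all genes were higher, and DESeq2 called 0. The part of these lists in the values of the Paneth genes was not tested.

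Correlations over libraries were computed for 5 pairs of genes, and none was shown within groups. Over 16 libraries Lyz1 and Mmp7 had Pearson r = 0.79 and Spearman rho = 0.77 (permutation p, adjusted over the 5 pairs, 0.00112 and 0.00355), and 0.76 without the 2 libraries farthest from the median. Within groups r was 0.39 (adjusted permutation p = 0.299). Mmp7 and Defa24 had r = 0.78 and rho = 0.63 (adjusted permutation p = 0.00112 and 0.0266), 0.68 without the 2 farthest libraries and 0.58 within groups (adjusted permutation p = 0.154). Lyz1 and Defa24 had r = 0.63 and rho = 0.44 (adjusted permutation p = 0.0165 and 0.146), r = 0.35 without 2 libraries and 0.47 within groups (adjusted permutation p = 0.154). Lyz1 had r = -0.26 and rho = -0.29 with Muc2, the goblet cell mucin (adjusted permutation p = 0.399 and 0.336), 0.040 without 2 libraries and 0.12 within groups (0.673). With the B-cell gene Cd79a it had r = -0.16 and rho = -0.053 (adjusted permutation p = 0.563 and 0.848), -0.50 without 2 libraries and -0.29 within groups (0.490).

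Other genes of Paneth biology and other cells were read from 11 lists. Among 23 genes of Paneth support and niche, 21 were tested in males, and edgeR called 1 higher (0.0527% of all genes). Higher with an unadjusted p below 0.05 were 9 (3.01% of all genes), and DESeq2 called 3 higher (0.363%). The 21 genes had a median log2 fold change of 0.081, with 15 above 0 and 6 below. The gene called by edgeR was Itln1, an intelectin that binds microbial sugars, at 1455, 1469, 1363 and 1537 CPM in WT and 2504, 2221, 2312 and 2159.5 in LKO (log2 fold change 0.66, SE 0.0687; edgeR adjusted p = 0.000609). In females it gave 0.15 (SE 0.118). It was also lower in WT males than in WT females (-0.69, SE 0.118, edgeR adjusted p = 0.0439). So were the ribonuclease Ang (-0.49, 0.0334 by edgeR) and, from the stem cell list, Lgr5 (-0.37, 0.0464 by edgeR). In that comparison edgeR called 2 of 21 Paneth support genes and 1 of 5 stem genes lower, beside 0.151% of all genes. Of the 21, 16 were below 0 and 5 above, and all 5 stem genes were below 0. Leaving out 1 library, these WT calls held in 2 of 8 fits for Itln1 (without female WT replicate 1 or 4), 3 of 8 for Ang (without male WT replicate 2 or female WT replicate 3 or 4) and 1 of 8 for Lgr5 (without female WT replicate 4).

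Sox9, the transcription factor that Paneth cells need, was at 20.4 to 25.0 CPM in male WT and 25.0 to 30.4 in male LKO (log2 fold change 0.32, edgeR adjusted p = 0.457), and in females it gave -0.12 (SE 0.170). Muc2 gave -0.085 (SE 0.0646) in males and -0.19 (SE 0.0705) in females. In males 0 genes of the secretory folding, goblet, stem, proliferation, enterocyte, enteroendocrine, tuft, B-cell follicle, macrophage and smooth muscle lists were called by edgeR. Higher with an unadjusted p below 0.05, as were 3.01% of all genes, were 2 of 5 stem and 1 of 9 enterocyte genes. Lower at that level, as were 2.28% of all genes, were 1 of 8 goblet, 1 of 6 enteroendocrine and 1 of 3 tuft genes. There were 0 of either kind among 14 secretory folding, 5 proliferation, 4 B-cell follicle, 5 macrophage and 6 smooth muscle genes. DESeq2 called 1 enterocyte gene higher and 0 of the others, beside 0.363% of all genes higher. Over both sexes the enteroendocrine gene Chgb was called lower (-0.30, SE 0.0614, edgeR adjusted p = 0.0458), 1 of 6 on its list, beside 0.147% of all genes. That call held in 2 of 16 fits that left out 1 library, those without male WT replicate 4 or female WT replicate 4.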

How the data were processed

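RNA from the terminal ileum of 16 mice, 1 library per animal, was made into stranded poly(A) libraries and sequenced as 100-base single-end reads. The authors deposited raw read counts per gene over exons. Per the submitters' processing notes and the study's methods, reads were aligned to mm10 with STAR 2.5.2, keeping 1 mapping position and at most 4 mismatches, and counted with HOMER 4.10. The strand setting of the counting is not given in the sources used here.

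Counts were scaled with TMM and tested with edgeR 4.0.16 (R 4.3.3) after filterByExpr, with a robust quasi-likelihood fit of the groups compared and Benjamini-Hochberg adjustment over all genes tested, threshold 0.05. Standard errors were derived from the fold change and its F statistic. DESeq2 1.42.0, relative log expression (RLE) scaling, no filter, a replicate block, the number in the sample title and leaving out each library were alternatives. The members and lists were chosen with earlier results of these data known. Genes given in full were those called in any comparison, the 5 defensins highest per kb, all 8 other members, and Sox9, Itln1 and Muc2. The deposited length column gave values per kb. Pairs of replicates differed beyond counting noise (chi-square per degree of freedom 8.84 to 29.4 over 24 pairs). The 95% intervals of fold changes include the spread between animals, and the floor of 3 counts covers counting error only.

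Samples of 1 number in different groups came from different animals. Over 24 pairs their deviations from the group means correlated between -0.167 and 0.317, so the numbers were not used as pairs.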

Additional observations from a re-analysis of the deposited data

Results flagged for a closer look

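Among 104 groups of 4 libraries, 1 for each gene and group, 4 (3.85%) held a library far from the other 3, where chance gives about 1 in 20. In male WT, replicate 4 had 944 CPM of Defa30 while the other 3 lay between 1824 and 1951. In female LKO, replicate 2 had 1788 CPM of Defa30 while the others lay between 3564 and 3789. Both libraries are among the 4 that stood low from Defa35 to Defa22. Ang4 was at 896 CPM in male LKO replicate 2, above 601 to 636 in the others. Mptx1 was at 8.27 CPM in female WT replicate 2, above 1.55 to 2.42 in the others.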

How the results depend on the processing

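With 4 libraries a group the counts of called members moved with single libraries and with the test, while the median of each class kept its direction in every alternative, except that of the defensins in females (-0.0055 without female WT replicate 1) and that of the other Paneth genes between LKO sexes (0.045 without male LKO replicate 2 and 0.027 without the 4 libraries). DESeq2 called 7 defensins and 4 other genes in males, 11 and 4 between WT sexes, 4 and 2 between LKO sexes, and 5 and 2 over both sexes. With no filter it was 4 defensins in males, where 0.106% of genes were called higher. It was 1 other gene between WT sexes, where 40 of 19884 genes were called lower. Between LKO sexes it was 3 defensins, where 74 of 20111 genes were called lower. RLE scaling gave 3 defensins between WT sexes, where 12 of 15229 genes were called lower. The animal number gave 0 other genes in males. Without the 4 libraries low in Defa30, chosen after seeing the data, 10 defensins were called in males and 0 between WT sexes.

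Leaving out 1 library at a time, called defensins ranged from 0 to 5 in males, 0 to 8 between WT sexes, 0 to 3 between LKO sexes and 0 to 1 over both sexes. Other genes ranged from 0 to 2, 0 to 3, 0 to 1 and 0 to 1. Deciding libraries beyond those named above were female LKO replicate 4 (3 defensins) and male LKO replicate 2 (Ang4) between LKO sexes. Over both sexes they were female WT replicates 2 (Pla2g2a) and 4 (Defa3). Between LKO sexes without female LKO replicate 4, edgeR called 262 of all 15340 genes lower in males and 403 higher. With all libraries it called 6 and 9. Without male LKO replicate 2 it called 30 of 15390 lower. Over both sexes it called 12 of 15718 higher without female WT replicate 2 and 19 of 15709 without female WT replicate 4.

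With the replicate block 1 other gene, Ang4, was called between LKO sexes, where 10 of 15250 genes were called lower. Between WT sexes the block gave 7 defensins, where 20 of 15229 genes were called lower. It gained Defa5, Defa29, Defa21 and Defa3 and lost Defa4 (edgeR adjusted p = 0.0942) and Defa35 (0.170 by edgeR). It also lost Ang (0.0701) and Lgr5 (0.114) there and Chgb over both sexes (0.0608), all by edgeR, and changed no other member's call. Lgr5 missed the threshold with RLE scaling too (0.05004), and Ang, Lgr5 and Chgb with the animal number (0.102, 0.157 and 0.344 by edgeR). The numbers pair no animals.

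Small fold changes changed sign. With the animal number Mptx1 gave 0.64 and Gfi1 -0.10 in males, and in females Gfi1 gave 0.026 and Sox9 0.0062. Without the 4 libraries females gave 0.044 for Defa4, 0.11 for Defa35, 0.13 for Defa30 and 0.011 for Gfi1. Leaving out 1 library, Mptx1 in males ranged from -0.42 to 0.28. In females the ranges were -0.21 to 0.044 (Defa4), -0.13 to 0.11 (Defa35), -0.13 to 0.00048 (Lyz1), -0.18 to 0.13 (Defa30), -0.069 to 0.21 (Defa22), -0.11 to 1.52 (Mptx1), -0.19 to 0.14 (Habp2) and -0.11 to 0.088 (Gfi1). Between LKO sexes Mmp7 ranged from -0.050 to 0.071. The causes were not tested.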
